A study of Mus musculus with 6 samples.

Results

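The membrane mucins of the ocular surface were followed in the corneal epithelium through 6 genes, Muc1, Muc4, Muc15, Muc16, Muc20 and Lgals3, which were taken by symbol from a table of 17866 protein-coding genes. Of these 6 genes, 5 were among the 13305 genes with enough counts to be tested, and Muc16 was not. In Rela-/- mice Muc4, Muc20 and Muc15 were lower than in wild type (WT) mice, by 2.46-fold, 1.94-fold and 1.77-fold, although the call of Muc20 was lost (adjusted p = 0.105, edgeR) when reads it may share with Muc4 were subtracted. Muc1 was 2.01-fold higher, and Lgals3 differed by less than the spread between libraries. Muc16 was close to absent in both groups.

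Membrane mucins are long glycoproteins anchored in the cell membrane, whose extracellular part is densely covered with O-linked sugars. On the cornea and conjunctiva they form the glycocalyx at the tips of the surface cells, which holds the tear film, lubricates the lids and keeps pathogens and dyes out. MUC1, MUC4 and MUC16 are the classical membrane mucins of the human ocular surface, and MUC15 and MUC20 are less studied members of the same class. Galectin-3, the product of Lgals3, is a lectin that binds galactose-bearing sugars and crosslinks mucins into a barrier.

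Corneal epithelium of C57BL/6 mice aged 6 months was sequenced in bulk, in 3 libraries labelled WT and 3 labelled Rela-/-. Rela encodes p65, a subunit of the transcription factor NF-κB. In the study the mutants carried floxed Rela alleles and Krt14-Cre, a driver whose activity was also traced to the limbus, conjunctiva, meibomian glands, skin, oral mucosa and trachea. Each library came from an independent biological sample, according to the methods. No genotype other than WT is given for the controls, so whether they carried Cre or floxed alleles is not known here. The epithelial layer was lifted off the stroma before RNA extraction. Levels in such bulk samples cannot tell fewer cells of a type from less RNA per cell.

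Library totals lay between 20158404 and 20880347 estimated counts, at which 3 counts correspond to between 0.137 and 0.152 CPM (the count over a library size scaled by TMM factors). Rela stood at 86.4 ± 1.21 CPM in WT and 14.3 ± 2.71 CPM in Rela-/- (mean ± SD, n = 3 per group), which checked the labels. The corneal markers Krt12, Aldh3a1, Pax6 and Tkt were abundant in WT, with a summed level between 65250 and 66400 CPM, and all 4 of 4 were lower in Rela-/-, at a summed level between 10880 and 13130 CPM.

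Most genes differed between the genotypes, so each count of mucins has to be read against that background. At an adjusted p of 0.05 (edgeR quasi-likelihood test, adjusted over all genes tested), 62.0% of the 13305 genes were called, and 4 of the 5 mucin and galectin genes tested were called. Among all genes 31.8% were higher and 30.2% were lower in Rela-/-, against 1 of 5 and 3 of 5 here. The median log2 fold change of the 5 genes was -0.83, and -0.89 for the 4 mucins without Lgals3, beside 0.01 for all genes tested. The normalized counts of the groups did not overlap for 68.6% of all genes and for 4 of these 5. The stricter threshold of the study was an adjusted p of 0.001 or less and a fold change of at least 2. In edgeR it was passed by 19.8% of all genes and by Muc4 alone of the 5. Muc1 lay near the limit of fold change and passed both limits in DESeq2, at a log2 fold change of 1.01 (adjusted p = 1.77e-05, DESeq2).

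**Figure D1:**
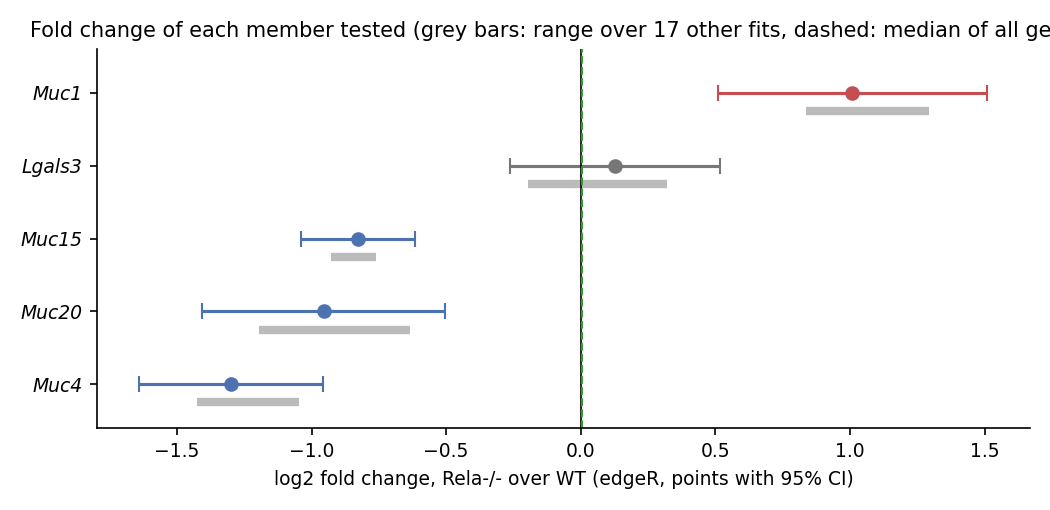
Log2 fold change of the 5 genes tested, Rela-/- over WT, from edgeR (points) with 95% confidence intervals (bars with caps); blue is lower, red is higher and grey is not called, and the dashed line is the median of all genes. Grey bars give the range over 17 other fits. Muc4, Muc20 and Muc15 lie at -1.30, -0.95 and -0.83, Muc1 at 1.01, and the interval of Lgals3 spans 0.

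The members lie on 5 chromosomes, and Muc4 and Muc20 are neighbours. In the coordinates of GRCm38, Muc4 spans 32735886 to 32782391 on the plus strand of chromosome 16 and Muc20 spans 32777419 to 32797435 on the minus strand, so that the ends of these genes overlap tail to tail over 4973 bases. Muc1 spans 89229056 to 89233381 on chromosome 3, and Lgals3 spans 47373860 to 47386167 on chromosome 14, both on the plus strand. Muc15 (chromosome 2, 110721494 to 110739537, plus strand) lies within the gene Ano3, which is read from the opposite strand and shares 61 exon bases with it. Muc16 spans 18495445 to 18674821 on chromosome 9, on the plus strand in the deposited annotation but on the minus strand in GENCODE.

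The sequence upstream of each start site is shown for the 3 mucins that differ in direction or share a locus and for Lgals3, because the deleted gene encodes a DNA-binding factor. RefSeq start sites were given for 5 of the 6 genes (GRCm38.p6), and the 250 bases before the start are printed from 5′ to 3′ on the strand of the gene. They are chr3:89228806-89229055 (plus) for Muc1, chr16:32735636-32735885 (plus) for Muc4, chr16:32797436-32797685 (minus) for Muc20 and chr14:47373610-47373859 (plus) for Lgals3. Capitals mark matches, on either strand, to the GC box GGGCGG, to the TATA box TATAAA, to the AP-1 site TGANTCA or to the consensus of the κB site.
Muc1: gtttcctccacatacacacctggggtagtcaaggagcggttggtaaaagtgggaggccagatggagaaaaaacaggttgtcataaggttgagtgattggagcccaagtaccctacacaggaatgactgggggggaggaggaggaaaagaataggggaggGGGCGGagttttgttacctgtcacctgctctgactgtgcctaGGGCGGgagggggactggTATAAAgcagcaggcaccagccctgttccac
Muc4: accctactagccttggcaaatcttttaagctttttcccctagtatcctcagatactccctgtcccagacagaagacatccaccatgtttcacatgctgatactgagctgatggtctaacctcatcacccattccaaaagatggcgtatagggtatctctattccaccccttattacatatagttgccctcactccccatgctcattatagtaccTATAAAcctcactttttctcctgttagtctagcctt
Muc20: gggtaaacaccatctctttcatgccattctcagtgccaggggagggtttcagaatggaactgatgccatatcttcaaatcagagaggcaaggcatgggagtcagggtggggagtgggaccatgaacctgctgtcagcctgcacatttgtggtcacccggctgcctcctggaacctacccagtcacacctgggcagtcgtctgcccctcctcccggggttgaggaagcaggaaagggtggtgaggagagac
Lgals3: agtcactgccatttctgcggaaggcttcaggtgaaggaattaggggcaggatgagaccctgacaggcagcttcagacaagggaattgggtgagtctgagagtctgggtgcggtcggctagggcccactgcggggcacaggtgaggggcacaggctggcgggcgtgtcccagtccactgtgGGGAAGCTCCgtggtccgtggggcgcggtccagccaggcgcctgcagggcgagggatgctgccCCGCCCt
Muc1 had 2 GC boxes, which begin 91 and 49 bases before the start, and a TATA box that begins 31 bases before it. Muc4 had a TATA box that begins 36 bases before the start, and Muc20 had no match to any of the 4 motifs in this window. Lgals3 had a match to the κB consensus that begins 70 bases before the start, and a GC box at its 3′ end. A κB match was present in 7.25% of the same window of all 32851 promoters in the RefSeq table, a GC box in 32.7%, a TATA box in 12.4% and an AP-1 site in 6.75%. The Muc1 window was 54.8% G and C and the Muc4 window 43.6%, around a median of 52.4% for all promoters. A match describes the letters only, and binding was not measured in these libraries.

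Of the 5 mucins followed, Muc4 had the highest level in both genotypes and the largest fall. The protein carries growth-factor-like domains beside its mucin domain and is known to associate with the receptor ErbB2. Its estimated counts were 157574, 178587 and 175210 in WT and 55596, 61659 and 75735 in Rela-/-. All 3 mutant libraries lay far below all 3 WT libraries, and the lowest WT count exceeded the highest mutant count. Normalized, this was 7941 ± 626 CPM for WT and 3227 ± 493 CPM for Rela-/- libraries, a log2 fold change of -1.30 (SE 0.148, 95% CI -1.64 to -0.96, adjusted p = 1.26e-04, edgeR). In WT, Muc4 alone made up between 0.760% and 0.859% of all counts of a library, and in Rela-/- between 0.268% and 0.363%. By FPKM, which corrects for gene length and library size, it ranked between 70 and 83 of 17866 genes in WT and between 245 and 279 in Rela-/-. Over 17 other fits, other scalings included, the log2 fold change stayed between -1.43 and -1.05 and was called in each.

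Muc20 was lower as well. The protein is a short membrane mucin that is known to interact with the receptor Met, whose own gene was lower too, at -1.59 on the log2 scale (adjusted p = 5.56e-05, edgeR). Muc20 had 10513, 8888 and 12042 estimated counts in WT against 4066, 4400 and 6608 in Rela-/-. The groups did not overlap, but mutant library 3 stood nearer to WT than the other mutants. The level fell from 488 ± 78.6 CPM to 252.0 ± 67.4 CPM, a log2 fold change of -0.95 (SE 0.197, 95% CI -1.41 to -0.50, adjusted p = 0.00301, edgeR).

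The counts of Muc20 could include reads of Muc4, because their coding transcripts share 381 exon bases on opposite strands and the sources do not say if reads were counted by strand. With its reads spread evenly over its transcript, Muc4 would give between 5242 and 5941 reads over the shared bases in WT and between 1849 and 2519 in Rela-/-. These reads equal between 38.1% and 66.8% of the counts of Muc20 in a library. With that number of reads taken away, the log2 fold change of Muc20 was -0.63 (SE 0.307) and the call was lost (adjusted p = 0.105, edgeR). How many reads of Muc4 were in fact given to Muc20 was not tested.

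Muc15 was the most uniform of the mucins. It is a membrane mucin of epithelia and milk fat globules. Its estimated counts were 4539, 4575 and 4395 in WT and 2122, 2387 and 2556 in Rela-/-. The WT libraries lay close together and every mutant library lay well below them. WT libraries averaged 209.6 ± 2.79 CPM, a coefficient of variation of 1.33%, and Rela-/- libraries 118.2 ± 10.03 CPM. The difference on the log2 scale was -0.83 (SE 0.0926, adjusted p = 1.13e-04, edgeR) and lay between -0.93 and -0.76 over 17 other fits. Ano3, the gene around Muc15, had at most 35 counts in any library and was not called (adjusted p = 0.559, edgeR).

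Muc1 went the other way. Its protein, the widely expressed membrane mucin of simple and stratified epithelia, has a short cytoplasmic tail that takes part in signalling. Muc1 had 1230, 1084 and 1834 counts in WT against 2132, 2445 and 3191 in Rela-/-. Each mutant library was above each WT library, although the highest WT and the lowest mutant library were close. Its mean rose from 64.5 ± 19.5 CPM to 129.9 ± 26.3 CPM, with a coefficient of variation of 30.3% in WT that was the widest of the 5 genes tested. This gave a log2 fold change of 1.01 (SE 0.219, 95% CI 0.51 to 1.51, adjusted p = 0.00394, edgeR). Over 17 other fits it lay between 0.84 and 1.30 and was called in each. On the TPM scale, which gives a transcript's share of all transcripts of a library, Muc1 stood at 63.2 ± 16.7 in WT and 100.9 ± 19.2 in Rela-/-.

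Muc16, the largest of the membrane mucins and a main component of the human corneal glycocalyx, was close to undetected. It had 1, 4 and 8 counts in WT against 3, 2 and 11 in Rela-/-, over a transcript of 26341 effective bases. The groups overlapped, no library exceeded 0.02 FPKM, and no fold change is given. At these counts a difference in Muc16 was not detectable. Whether the gene model used for counting, whose strand differs from that in GENCODE, lowered its counts was not tested.

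Lgals3 was the gene with the next highest level per length in WT and was not called. It had 12949, 13708 and 18115 counts in WT against 12702, 15348 and 17465 in Rela-/-. The groups overlapped in counts and in CPM alike. Means of 696 ± 142 CPM (WT) and 761 ± 114 CPM (Rela-/-) gave a log2 fold change of 0.13 (SE 0.170, 95% CI -0.26 to 0.52, adjusted p = 0.534, edgeR). The interval leaves room for a fall or rise of up to these bounds, so the test does not show that the levels were equal. The direction depended on the scale, since the mean was higher in Rela-/- as CPM and FPKM but lower as TPM, 1113 ± 181 in WT and 963 ± 136 in Rela-/-.

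**Figure D2:**
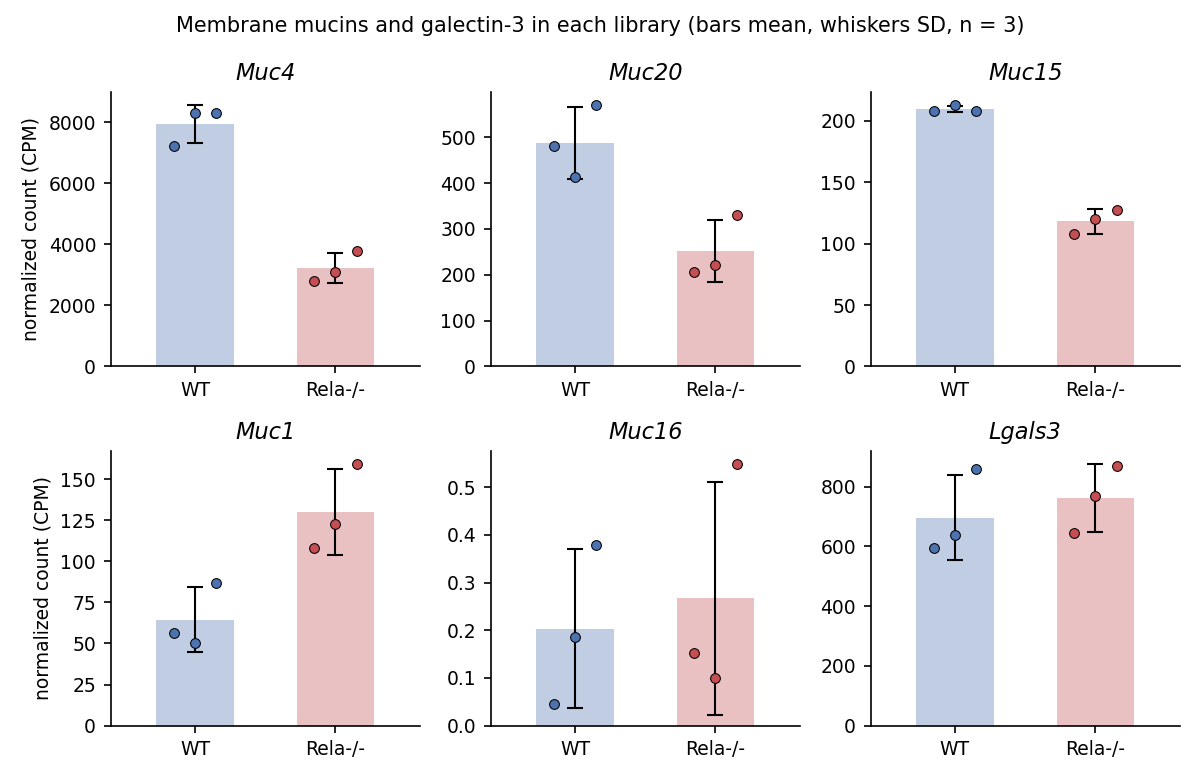
Normalized counts (CPM) of the 6 genes in each library; bars are means, whiskers are SD, and points are the 3 libraries of a genotype, on axes that start at 0 and differ between genes. Mutant points lie below WT points for Muc4, Muc20 and Muc15 and above them for Muc1, and overlap them for Muc16 and Lgals3.

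Compared per length, the order of the 6 genes differed between the genotypes at 2 places. In WT the mean FPKM fell from Muc4 (717) to Lgals3 (521), Muc20 (181), Muc15 (65.8), Muc1 (29.6) and Muc16 (0.0067). In Rela-/- the order was Lgals3 (533), Muc4 (272), Muc20 (88.3), Muc1 (55.8), Muc15 (34.6) and Muc16 (0.01). Muc4 and Lgals3 had changed places, and so had Muc15 and Muc1. In the deposited FPKM, each pair of neighbours stood in the stated order in 3 of 3 libraries of the genotype, and their ranges did not overlap. The closest neighbours were Muc20 and Muc1 in Rela-/-, where the lowest FPKM of Muc20 was 68.8 and the highest of Muc1 was 67.8. The place of Muc20 depended on the reads it may share with Muc4. With these subtracted, as described above, Muc20 lay between 49.96 and 107.1 FPKM in WT and between 37.5 and 72.5 FPKM in Rela-/-. It was then above Muc15 in 2 of 3 WT libraries and above Muc1 in 1 of 3 mutant libraries. The ratio and share of Muc20 given next were taken without this subtraction.

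**Figure D3:**
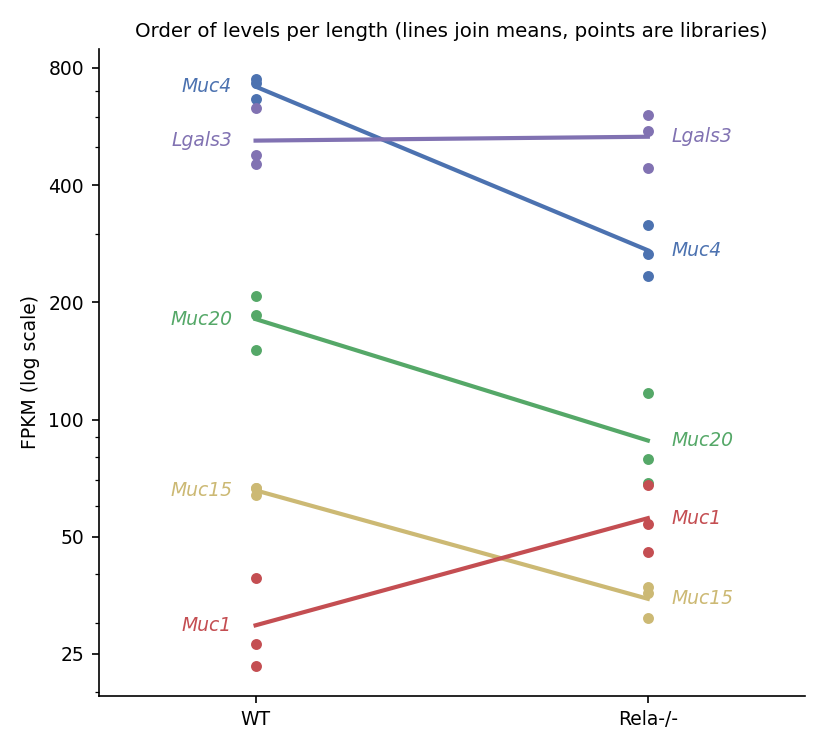
FPKM (log scale) of 5 of the 6 genes in WT and Rela-/- libraries; points are libraries and lines join the means. The lines of Muc4 and Lgals3 cross, and so do those of Muc15 and Muc1, while Muc20 as deposited stays in the third place; Muc16, at 0.02 FPKM or less, is not drawn.

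These crossings show in ratios taken within a library, which do not depend on the scaling between libraries. The ratio of Muc1 to Muc15 by FPKM was 0.398, 0.347 and 0.611 in WT and 1.47, 1.503 and 1.83 in Rela-/-. Muc15 exceeded Muc1 in every WT library and Muc1 exceeded Muc15 in every mutant library. The ratio of Muc4 to Lgals3 was 1.47, 1.57 and 1.16 in WT and 0.527, 0.485 and 0.523 in Rela-/-. For Muc1 over Muc4 the mean ratio was 0.0413 in WT and 0.204 in Rela-/-, and for Muc20 over Muc4 it was 0.254 and 0.320. None of 5 ratios examined overlapped between the groups. Each gave p = 0.1 in a two-sided exact permutation test over 6 libraries, the smallest value that 3 against 3 can give. The ratios use the same FPKM values as the order above, so they are no separate evidence for the crossings. How often ratios of other gene pairs overlap was not determined, and single genes did not overlap in 68.6% of cases by normalized counts.

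The summed level of the 5 mucins, which leaves out Lgals3, was lower in Rela-/- and differently composed. The sum was 2057, 2135 and 2188 TPM in WT and 699, 780 and 967 TPM in Rela-/-. The WT libraries lay within a narrow range and every mutant library was below it. Muc4 made up 72.2 ± 3.09% of the sum in WT and 60.5 ± 1.57% in Rela-/-. Muc1 made up 2.96 ± 0.716% in WT and 12.3 ± 0.284% in Rela-/-, and its 3 mutant shares lay within 12.04% to 12.6%. The shares of Muc20 (18.2% and 19.4%) and Muc15 (6.64% and 7.76%) differed little between the means. Shares add up to a fixed total, so a lower share of Muc4 raises those of the others.

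**Figure D4:**
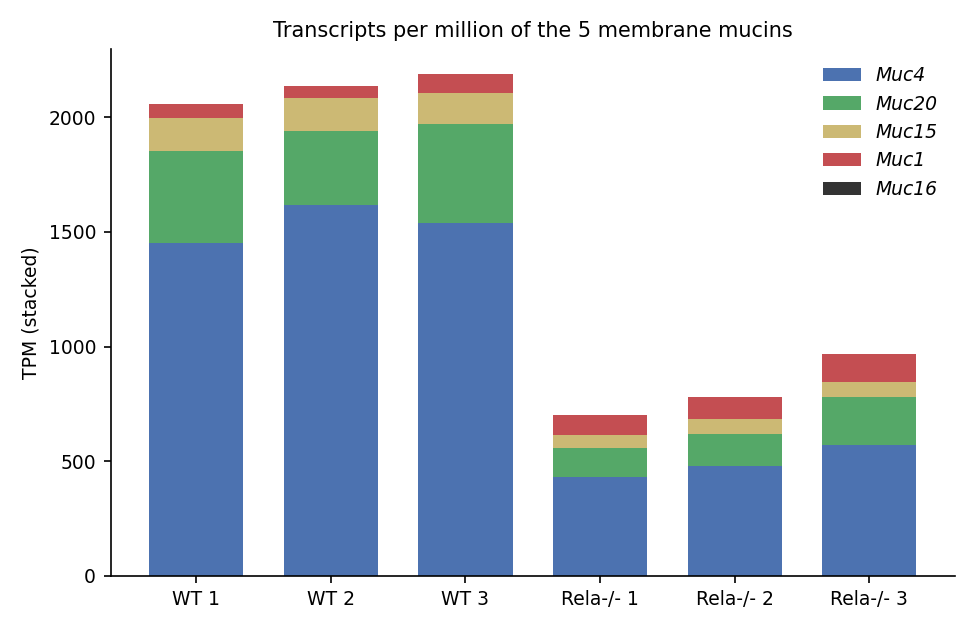
TPM of the 5 membrane mucins, stacked for each of the 6 libraries. The stacks reach 2057 to 2188 TPM in WT and 699 to 967 TPM in Rela-/-, with Muc4 as the largest segment throughout and a visibly larger share of Muc1 in Rela-/-; Muc16 is too low to be seen.

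The mutant libraries kept a common order across the genes of this group, and how often all genes show this order was not determined. Mutant library 3 was the highest and mutant library 1 the lowest of the 3 for 5 of 5 genes tested. Mutant library 1 also had the lowest Krt12 count, 109690 against 154911 and 161317, and the lowest Tkt level, 810 CPM against 876 and 930 CPM. The corneal markers Aldh3a1 and Pax6 went the other way. In mutant library 1 Aldh3a1 was at 4248 CPM against 4176 and 3915 CPM, and Pax6 at 270.0 CPM against 238.9 and 244.3 CPM. The summed level of the epidermal markers Krt1, Krt10, Lor, Flg and Ivl was highest in this library, 22720 CPM against 10150 and 13500 CPM. The part of these differences in the mucin levels was not tested. All 4 calls held without mutant library 1 and without mutant library 3.

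The pattern over the 6 libraries was also compared between each mucin and all genes tested, by Pearson correlation of log2 CPM. The genes most like Muc4 were 1700029J07Rik (r = 0.998) and Trim12c (r = 0.998), and those most like Muc15 were Osmr, a receptor of oncostatin M (r = 0.999), and Golgb1, a protein of the Golgi (r = 0.999). For Muc1 they were Vamp8, a vesicle fusion protein (r = 0.994), and Ndufa11 (r = 0.994), and for Muc20 they were Gatad1 (r = 0.997) and Zmym1 (r = 0.996). Lgals3 was most like the protease gene Prss27 (r = 0.993) and S100a10 (r = 0.993). These correlations are descriptions over 6 libraries that share a split by genotype. Correlations over 0.95 were common, with 1574 genes for Muc15, 1316 for Muc4, 313 for Muc20, 159 for Muc1 and 13 for Lgals3.

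Most of the other membrane mucins were lower as well. Of 4 tested, 3 were lower and 1 was higher, with a median log2 fold change of -0.91. Counts in this list and those below stand beside 31.8% higher and 30.2% lower among all genes tested. Muc21, listed under the name Gm9573, had 51674, 57008 and 48960 counts in WT against 19770, 13710 and 17364 in Rela-/-. Its groups lay far apart, at a log2 fold change of -1.52 (adjusted p = 7.07e-05, edgeR), and in WT its mean of 478 FPKM was between those of Lgals3 and Muc20. Cd164, a sialomucin of many cell types, was lower at -0.59 (adjusted p = 0.00144), and Muc13 was lower at -1.22 (adjusted p = 0.0494) with overlapping groups and counts of at most 92. Muc13 lost its call in 11 of 16 other fits, with adjusted p up to 0.16. Mcam, an adhesion molecule also known as MUC18, was higher at 3.05 (adjusted p = 0.00947) on at most 155 counts. Mcam had enough counts for testing only through the Rela-/- libraries.

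Secreted, gel-forming mucins are made by goblet cells of the conjunctiva rather than by corneal cells. They were close to 0 in WT and present at low counts in Rela-/-. Muc5ac had 0, 0 and 0 counts in WT against 141, 15 and 214 in Rela-/-, at least 44.3-fold higher when WT is set to 3 counts per library (adjusted p = 0.00352, edgeR). Muc5b had 0, 1 and 2 counts in WT against 158, 14 and 155 in Rela-/- (adjusted p = 0.00125). In both genes mutant library 2 was far lower than the other mutants. Muc2 was also called, at 1.51 (adjusted p = 0.0358, edgeR) on at most 22 counts, a call that 6 of 14 other fits lost. Although 3 of 3 secreted mucins tested were higher, each had enough counts for testing only through the Rela-/- libraries. Muc6 and Muc19, with few counts in both groups, were not tested, so this count was largely fixed by the filter on counts. Their median was 6.70, or 5.29 with the genes with no more than 3 counts in any WT library set to 3. In limma on log2 FPKM, where Muc5b and Muc2 were too low to be tested, Muc5ac was called, again tested only through its Rela-/- mean of 0.55 FPKM.

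Of the goblet cell markers tested, 5 of 7 were higher, 1 was lower and 1 was not called, with a median of 1.91. The higher genes include Muc5ac, Muc5b and Muc2, which were already counted as secreted mucins. Like these, Spdef had enough counts for testing only through the Rela-/- libraries. Clca1 was not called, at 0.41 (adjusted p = 0.327, edgeR). Spdef, a transcription factor of goblet cells, rose from 3, 6 and 7 counts to 216, 70 and 205, and Agr2, a disulfide isomerase needed for mucin folding, was higher at 1.91 (adjusted p = 0.00506). Fcgbp, a mucus protein, was lower at -1.51 (adjusted p = 6.18e-05). Tff1 was at 0 in WT, and the summed level of the list, most of it Fcgbp, ran from 156.1 to 176.0 CPM in WT and from 61.5 to 112.6 CPM in Rela-/-. The part of these markers in the rise of Muc1 was not tested.

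Enzymes that start mucin-type O-glycans were mostly lower. Of 10 polypeptide GalNAc transferases tested, 6 were lower, 1 was higher and 3 were not called, with a median of -0.61. Galnt18 had 7186, 7209 and 7016 counts in WT against 2311, 2327 and 2145 in Rela-/- (log2 fold change -1.55, adjusted p = 3.29e-06, edgeR). The 2 groups were tight and far apart. Galnt4, which prefers peptides that already carry sugars, was lower at -2.24, Galnt2 at -1.41 and Galnt7 at -0.84. Galnt6 was the exception, with 0, 1 and 0 counts in WT against 37, 16 and 40 in Rela-/- (adjusted p = 2.24e-04). It had enough counts for testing only through the Rela-/- libraries.

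The enzymes that extend and cap these sugars were split, with 8 of 15 higher, 6 lower and 1 not called. Their median was 0.52. Several of the higher genes, Gcnt1, Fut1 and Fut2 among them, had enough counts for testing only through the Rela-/- libraries. A lower gene had enough only through the WT libraries. These counts of higher and lower genes, and their median, therefore depended in part on the filter on counts. The sialyltransferases St6galnac1 and St6galnac2, which cap the first sugar with sialic acid, were lower at -1.82 and -1.66 (adjusted p = 2.78e-05 and 1.73e-06, edgeR). Fut1 and Fut2, which add the terminal fucose of the H antigen, were higher at 5.05 and 5.18 (adjusted p = 6.99e-06 and 5.35e-07). Fut2 had 9, 9 and 14 counts in WT against 365, 375 and 349 in Rela-/-. Gcnt1, which makes the branched core 2 structure, went from 0, 1 and 0 counts to 42, 43 and 53. In WT, St6galnac1 and St6galnac2 stood at 660.0 and 208 CPM, whereas Fut1, Fut2 and Gcnt1 were each below 1 CPM.

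In the list of other galectins and the galectin-3 binding protein gene Lgals3bp, 2 of 7 genes tested were higher, 1 was lower and 4 were not called, with a median of 0.34. Lgals7, a galectin of stratified epithelia, had 237, 391 and 396 counts in WT against 13733, 14390 and 11604 in Rela-/- (log2 fold change 5.38, adjusted p = 1.16e-06, edgeR). It was lower than Lgals3 per length in WT, at a mean of 28.8 FPKM, and higher than Lgals3 in Rela-/-, at 1125 FPKM. Lgals1 was higher at 2.96 (adjusted p = 5.04e-04) and Lgals8 was lower at -0.32 (adjusted p = 0.00921). Lgals3bp, which encodes a ligand of galectin-3, was not called, at -0.99 (SE 0.397, adjusted p = 0.0583), and 5 of 17 other fits called it lower.

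Of the proteases listed here as candidates for shedding membrane mucins, 3 of 6 tested were higher, 1 was lower and 2 were not called. Their median was 0.21, beside shares of 31.8% higher and 30.2% lower among all genes tested. The genes not called were Adam17, at 0.06 (adjusted p = 0.527, edgeR), and Adam9, at 0.11 (adjusted p = 0.324, edgeR). Mmp14, a membrane-bound metalloprotease, was lower at -1.16 (adjusted p = 2.47e-05, edgeR). Adam10 was higher at 0.31 (adjusted p = 0.00741) and Bace1 at 0.93 (adjusted p = 0.00326). Mmp9 had 0, 0 and 1 counts in WT against 14, 40 and 27 in Rela-/-, and had enough for testing only through Rela-/-.

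The linkers and receptor partners of mucin tails were also divided, with 2 of 9 tested higher, 4 lower and 3 not called. Their median was -0.30, beside shares of 31.8% higher and 30.2% lower among all genes tested. Ezr, which encodes ezrin and ties membrane proteins to actin at the apical surface, was lower at -1.11 (adjusted p = 6.08e-05, edgeR). Its relative Msn, for moesin, had 18, 25 and 10 counts in WT against 1581, 2128 and 2109 in Rela-/- (log2 fold change 6.88, adjusted p = 4.47e-07). Egfr was lower at -0.97 and Erbb3 at -0.49, whereas Erbb2, the partner of Muc4, was at -0.30 and was not called (SE 0.153, adjusted p = 0.116), although 5 of 17 other fits called it.

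Of the transcription factors known in surface epithelium, 3 of 8 tested were higher, 2 were lower and 3 were not called. Their median was 0.07, and these counts lay near the shares of all genes tested, 31.8% higher and 30.2% lower. Pax6, the master regulator of the eye, was lower at -1.54 (adjusted p = 5.92e-06, edgeR) and Elf3 at -1.09 (adjusted p = 2.66e-04). Grhl3 and Foxa1 were higher at 0.86 and 0.90, beside Spdef. Klf4, known as a regulator of corneal and conjunctival differentiation, was not called, at -0.32 (SE 0.159, adjusted p = 0.113), although 4 of 17 other fits called it lower.

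**Figure D5:**
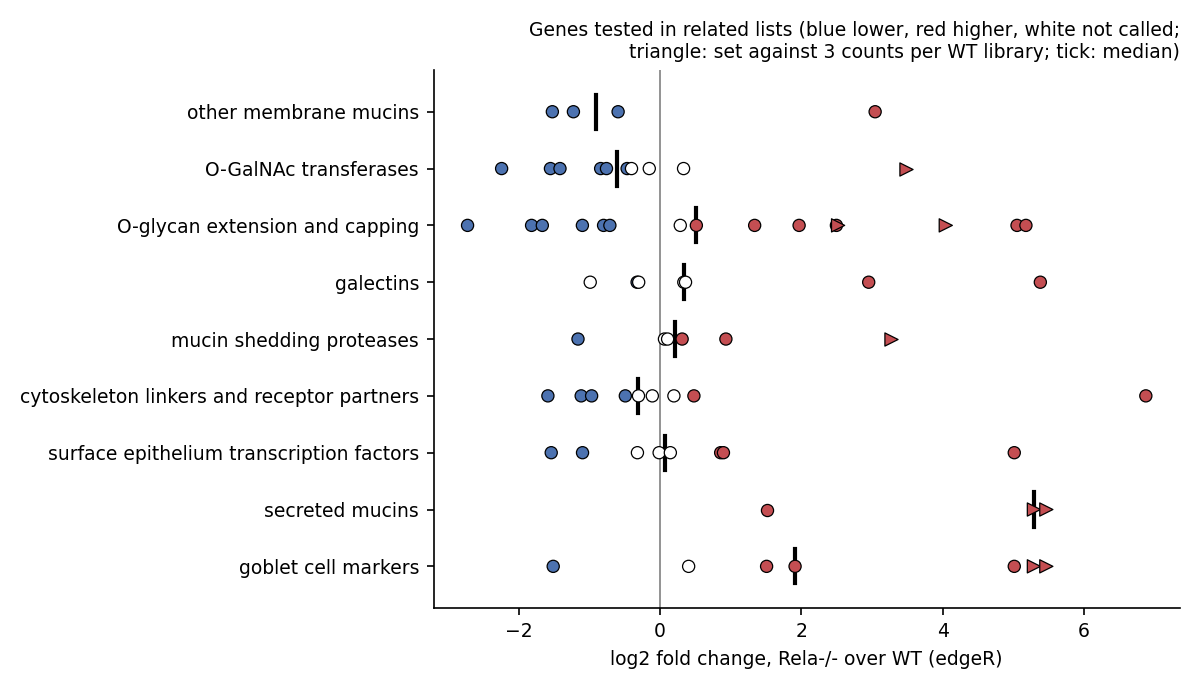
Log2 fold change, Rela-/- over WT (edgeR), of the genes tested in 9 related lists; blue points are lower, red points higher and white points not called. Triangles are genes with no more than 3 counts in any WT library, set against 3 counts, and black ticks are medians. Other membrane mucins and GalNAc transferases lie mostly below 0, at medians of -0.91 and -0.61, and secreted mucins and goblet cell markers mostly above it. Muc5ac, Muc5b and Muc2 are drawn under both secreted mucins and goblet cell markers, and Spdef under both transcription factors and goblet cell markers.

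Markers of other tissues also differed between the genotypes. The mucosal and conjunctival keratins Krt4, Krt13, Krt19 and Krt7 were higher in 4 of 4 cases, with a summed level from 1932 to 2958 CPM in WT and from 52340 to 66970 CPM in Rela-/-. The epidermal markers were higher in 4 of 5 cases, with a summed level from 28.5 to 39.5 CPM in WT and from 10150 to 22720 CPM in Rela-/-. The fifth, Ivl, was lower at -0.60 (adjusted p = 0.0333, edgeR), a call that 4 of 17 other fits lost. Krt19 and Krt7, which are typical of simple and conjunctival epithelium, changed least of the mucosal keratins, at 0.79 and 1.13 on the log2 scale. Leukocyte markers were higher for 4 of 6 genes tested, while Itgam was lower, and their summed level, most of it Itgam (mean 265.6 CPM in WT and 174.7 CPM in Rela-/-), ran from 266 to 337 CPM in WT and from 191 to 267 CPM in Rela-/-. Ptprc, for the pan-leukocyte antigen CD45, was at 0.402 CPM in WT and 5.27 CPM in Rela-/-, and the macrophage lysozyme gene Lyz2 at 0.0626 and 9.39 CPM. Stromal markers were higher for 3 of 3 genes tested, with Lum at 0 in WT and a sum of at most 9.82 CPM in any library. Col1a1 lost its call in 4 of 14 other fits, and Col3a1 and Lum were not tested. The 4 higher leukocyte genes and the 3 stromal genes had enough counts for testing only through the Rela-/- libraries. These counts of higher genes were therefore largely fixed by the filter on counts. Among the epidermal markers, Lor and Flg were likewise tested only through the Rela-/- libraries, whereas Krt1 and Krt10 had enough counts in both genotypes. The part of these cell types in the levels of the mucins was not tested, and cell composition and genotype cannot be told apart in these libraries.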

How the data were processed

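RNA of corneal epithelium was sequenced in 3 WT and 3 Rela-/- libraries. The study's methods describe rRNA depletion and single-end BGI sequencing, while the labels name an Illumina kit. The authors aligned reads with Bowtie2 2.2.5 and deposited the estimated counts, FPKM and TPM of RSEM 1.2.12 for each gene and library. RSEM shares reads among genes, so between 34.1% and 36.1% of the genes with counts in a library had counts that were not whole. The labels name mm9, but the coordinates of the table are those of GRCm38. Averages over libraries and the columns of the authors' DESeq2 comparison, which hold fold changes and p-values, were not used. All 18 columns of single libraries matched a labelled sample.

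Groups came from the titles. After rounding of the estimated counts, genotype was tested by the quasi-likelihood method of edgeR 4.0.16 (R 4.3.3) with TMM factors and filterByExpr, and p-values were adjusted by Benjamini-Hochberg over 13305 genes. A gene with almost no counts in 1 genotype passed the filter only through the other, and could then hardly be called in the opposite direction. Counts of higher and lower genes in the related lists depend on this filter. SE was obtained from the log2 fold change and the F statistic. TMM factors lay between 0.952 and 1.05. Floors of 3 counts cover counting error only, since PCR copies were not told apart. Ratios within a library were tested by exact permutation of the genotypes, two-sided, in scipy 1.17.1. Likeness of patterns was measured by Pearson correlation of log2 CPM with a prior count of 2, and the 2 most alike genes of each member were named. Promoter sequences and start sites came from RefSeq (GRCm38.p6), and exon overlaps from GENCODE transcripts on the same build. Muc15 was not in the promoter table.

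The members and the lists of related genes were chosen with earlier results of these data known. All members were named, and of each list at most 5 called genes with the lowest adjusted p, together with defining genes that were not called. Alternatives were RLE factors, total counts only, DESeq2 1.42.0, every gene with a count, genes with a mean count of 50 or more, robust dispersion, limma 3.58.1 on log2(FPKM + 1) and log2(FPKM + 0.1), a length correction, the replicate block and leaving out each library. Subtracting from Muc20 the reads that Muc4 would give over shared exon bases was added after seeing the data, for its fold change and its place in the order of FPKM. Code was tested on simulated data. Read-level quality, strand and exon usage were not analysed here.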

Additional observations from a re-analysis of the deposited data

How the results depend on the processing

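Muc1, Muc4 and Muc15 kept their direction and their call in 17 of 17 other fits, and Muc20 in 16 of 17. Muc20 lost its call when the reads that Muc4 would give over their shared exon bases were subtracted. Its log2 fold change was then -0.63 (adjusted p = 0.105, edgeR). This subtraction was chosen after seeing the data and leaves 3 of the 5 genes called. It changed the counts of Muc20 alone, so that fit is no separate test of the other genes. Lgals3 was called in no fit, with adjusted p between 0.111 and 0.933 (edgeR, DESeq2 or limma), and its log2 fold change turned to -0.20 with the length correction. The number of genes called among all tested lay between 7100 with a mean count of at least 50 and 8714 without a filter on low counts, and total counts only moved the median log2 fold change of all genes by -0.09. No pairing by replicate number was seen, since deviations of same-numbered libraries correlated at 0.03, -0.01 and 0.06. Those of differently numbered libraries lay between -0.16 and 0.12. Such correlations cannot exclude a pairing. With the replicate block 8083 genes were called against 8253 without it, and 4 of 5 members in each. Few counts limited what could be said of Muc16 and the secreted mucins.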
